A study of Mus musculus with 23 samples.

Results

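The 32 genes described here encode the proteins of inhibitory synapses that use GABA or glycine: receptor subunits, proteins that bind the receptors, and the enzymes and transporters that make, break down, and move GABA. They were chosen by gene symbol, and every probe on the array that carries 1 of the 32 symbols was taken, which gave 43 probes of 39429 on the array and 32 gene symbols of 31829. Genes outside these 32, the pathway list, and the lists of cell type and region markers described further on were not analysed 1 by 1 here. Gene expression was measured in whole brains, cerebrum and cerebellum included, of 12 male C57BL/6J mice at 19 weeks of age, with 1 one-colour Agilent array per mouse and 4 mice per group. All embryos were made by in vitro fertilization from C57BL/6J parents on a normal diet and were carried by ICR recipient mothers, an outbred stock, until caesarean section. Recipient mothers of the CD group received a control diet with 20% casein and 0.02% folic acid from 1 month before embryo transfer to delivery, those of the PR group a protein-restricted diet with 5% casein and 0.02% folic acid, and those of the FA group a protein-restricted diet with 5% casein and 0.1% folic acid. In all groups the neonates were fostered by ICR mothers, received the control diet after weaning, and went through behavioral tests before the brains were taken. The diet was given to the recipient mothers, and the litter of each mouse is not given in the sources used here. The p-values rest on the spread between these mice, each taken as separate. If mice of a group shared a mother, the p-values can be too small for an effect of diet.

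Fast inhibition in the brain is carried by ligand-gated chloride channels. GABA-A receptors are pentamers of alpha, beta, and gamma or other subunits, and the subunits decide where on the neuron the receptor sits and which drugs bind it. Glycine receptors are built in the same way and predominate in the brainstem and spinal cord, and GABA-B receptors are dimers that act through G proteins on potassium and calcium channels. GABA is made from glutamate by glutamate decarboxylases, loaded into vesicles by a vesicular transporter, taken up again by membrane transporters of neurons and glia, and broken down by a transaminase.

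Values are log2 intensities after spline normalization between arrays, and the 4 values of a group are always in the order of replicates 1 to 4. A probe was called when its difference had an adjusted p under 0.05 in the limma fit over all 39429 probes. The level of 1 probe cannot be set against that of another probe, since each binds its target with its own strength. Each diet group was hybridized on a slide of its own, so diet and slide cannot be told apart in any comparison, and both comparisons with the CD group share its 4 arrays. Between 27068 and 28458 of 43020 spots were well above the local background on the CD arrays, against 31266 to 33478 on the PR arrays and 30408 to 31672 on the FA arrays. The median net signal of the negative control spots was 28.3 to 34.9 on the CD, 42.3 to 51.4 on the PR, and 38.9 to 47.9 on the FA arrays, and its part in the differences of dim probes was not tested. Of the 43 probes, 36 were well above background on all 4 CD arrays, and 38 were on all 4 PR and on all 4 FA arrays. In whole-brain RNA, fewer cells of a type and less RNA per cell cannot be told apart.

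A few of the probes are shown because results turn on them: the pair for Glra1, the Glra3 probe that covers the matching end of the coding sequence, and the probes of Gabrg1 and Gabrr3 that differ from another probe of their gene. They are written 5′ to 3′ on the strand of the transcript, with mm9 coordinates as the array files give them, and capitals mark a stop codon at the end of a probe.
Glra1 A_51_P445532 (minus strand, chr11:55349979-55379742, spread over 29764 bases of genome): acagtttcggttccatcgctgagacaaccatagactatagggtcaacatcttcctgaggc
Glra1 A_55_P2005365 (minus strand, chr11:55328315-55328374): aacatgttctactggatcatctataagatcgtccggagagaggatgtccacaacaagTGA
Glra3 A_55_P2005370 (plus strand, chr8:58604090-58604149): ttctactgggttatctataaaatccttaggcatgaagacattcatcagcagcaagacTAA
Gabrg1 A_66_P118170 (minus strand, chr5:71169324-71169383): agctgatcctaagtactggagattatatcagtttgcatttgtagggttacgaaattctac
Gabrr3 A_55_P2112817 (plus strand, chr16:59429926-59429985): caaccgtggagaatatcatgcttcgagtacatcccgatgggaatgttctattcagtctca
Set side by side without gaps up to the stop codon of Glra1, the Glra1 and Glra3 probes that end in a stop codon were identical at 34 of 51 bases (66.7%).

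Compared with the CD group, 9 of the 43 probes in the PR group exhibited higher expression levels and 4 lower ones, or 30.2% of the probes. Over all probes on the array 30.1% were called in this comparison, 13.6% higher and 16.5% lower, so the genes of inhibitory synapses were called about as often as other genes. In the FA group, 7 probes were higher than in CD and 9 were lower, or 37.2% against 34.7% of all probes (16.4% higher and 18.3% lower). Between the FA and the PR group none of the 43 probes was called by limma, against 0.639% of all probes. In that comparison 5 of the 43 probes had an unadjusted p under 0.05 in limma, against 14.1% of all probes. The Tukey test called none of the 43 either, and 1 probe, Gabrg1 A_51_P396883, was called under 3 other settings. The median log2 difference over the 43 probes was -0.04 in PR and -0.05 in FA relative to CD, beside -0.01 in both over all probes. The values of the 4 PR and the 4 CD mice did not overlap for 18 of the 43 probes, where 33.4% of all probes did not overlap, and those of the FA and CD mice for 16, against 37.1% of all probes. Before adjustment, 19 of the 43 probes had a p under 0.05 in PR against 41.3% of all probes, and 18 in FA against 44.5%. The split of the calls depended on scaling: with arrays scaled to their 75th percentile, 6 probes were higher and 8 lower in PR, and 4 higher and 13 lower in FA. At that scaling 37.0% of all probes were called in PR, 43.2% of these higher, and 39.7% in FA, 41.4% of these higher. With a normexp background correction the split was 7 higher and 5 lower in PR and 5 higher and 8 lower in FA. Of all probes 21.2% were then called in PR, 56.1% of these higher, and 28.4% in FA, 56.4% of these higher. Under the Tukey test of the study there remained 3 of the 9 lower calls in FA, those of Gabra3 at both probes and of Gabbr2 A_52_P612928, and not those of Glra1, Slc6a11, Slc6a13, and the other Gabbr2 probes (adjusted p 0.0589 to 0.138). All 7 higher calls in FA remained. Of all probes 25.7% were called in FA under this test, 45.1% of these higher. At least 1 probe was called against CD for 16 of the 32 genes. By direction, 6 probes were higher in both the PR and the FA group, 2 were lower in both, and the remaining 13 probes were called in 1 of the comparisons with CD. A call in 1 comparison does not show a difference between FA and PR, which was called for none of these probes. For the counts of genes with a call and of probes called in both comparisons, the shares over the whole array were not computed. Those counts are therefore a description only.

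**Figure D1:**
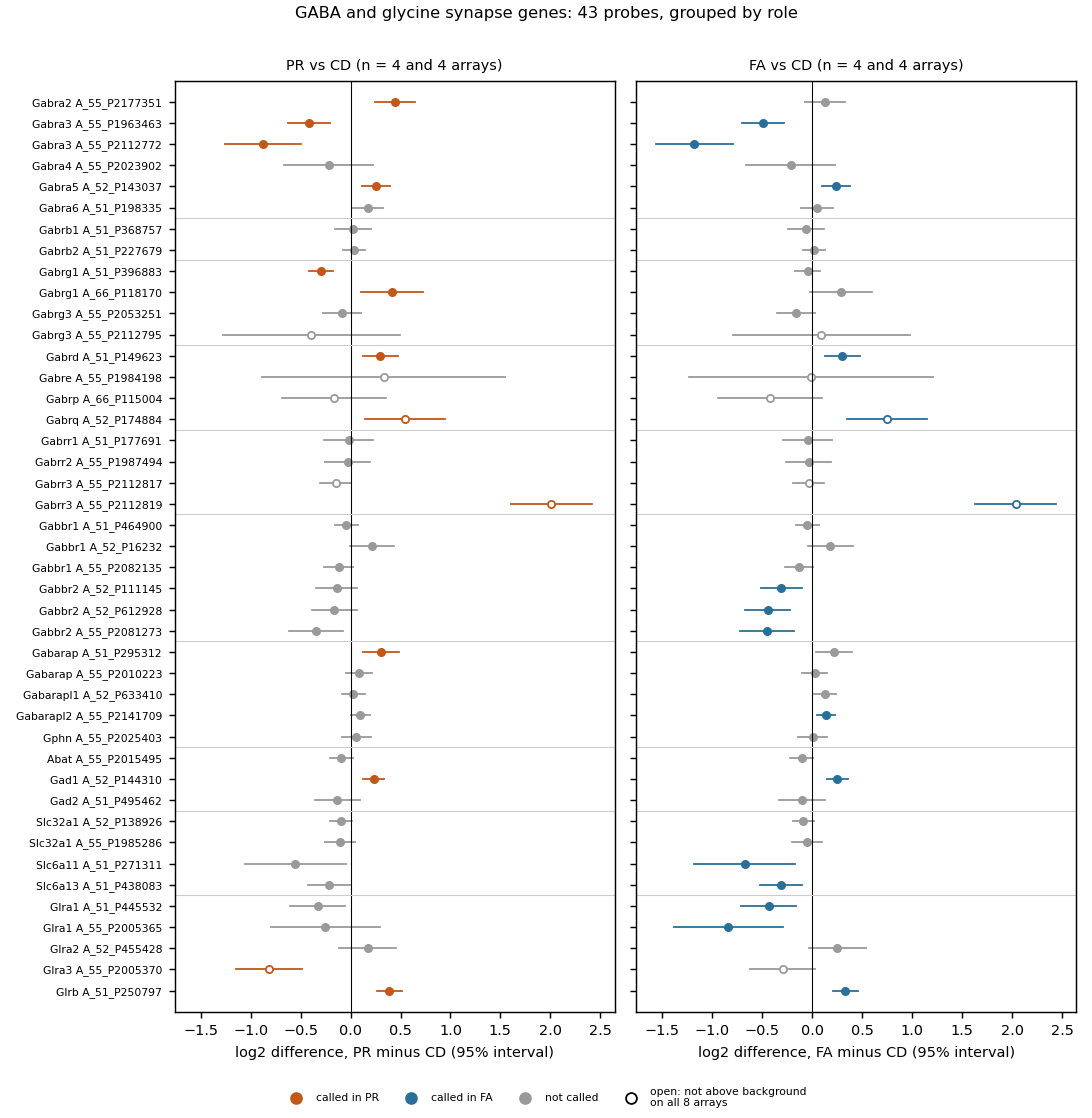
Log2 differences of the 43 probes of the GABA and glycine synapse genes, PR minus CD (left) and FA minus CD (right), with 95% intervals from limma (n = 4 arrays per group). Rows are ordered by role, coloured points passed an adjusted p under 0.05, and open points mark probes that were not well above background on all 8 arrays. The Gabra3 probe A_55_P2112772 lies at -0.87 and -1.18, and the open point of the Gabrr3 probe A_55_P2112819 is drawn from CD values at background, so its distance from 0 is not a measured fold.

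Among the alpha subunits of the GABA-A receptor, Gabra3 was lower and Gabra5 was higher in both the PR and the FA group, and Gabra2 was higher in PR. The alpha subunits form 1 side of the GABA binding site and of the benzodiazepine site. Of their 6 probes, 2 were higher and 2 lower in PR, and 1 was higher and 2 lower in FA. Over all probes 30.1% were called in PR and 34.7% in FA, and counts over 6 probes are a description only.

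Gabra3, the alpha3 subunit of receptors in the thalamic reticular nucleus, the brainstem, and monoaminergic neurons, has 2 probes on the X chromosome, and both fell in both groups. Values of A_55_P1963463 were 13.62, 13.50, 13.46 and 13.42 on the CD arrays, 13.16, 13.32, 12.99 and 12.88 on the PR arrays, and 12.87, 13.11, 13.07 and 12.99 on the FA arrays. All 8 PR and FA mice lay below all 4 CD mice. Relative to CD, its level was 1.33-fold lower in PR (PR minus CD -0.41, SE 0.095, 95% interval -0.62 to -0.20, adjusted p = 0.00855) and 1.41-fold lower in FA (FA minus CD -0.49, SE 0.095, 95% interval -0.70 to -0.28, adjusted p = 0.00282). The dimmer probe A_55_P2112772 read 6.11, 6.30, 6.34 and 5.93 on the CD arrays, 5.63, 5.15, 5.53 and 4.87 on the PR arrays, and 4.96, 5.29, 4.84 and 4.88 on the FA arrays. Its groups did not overlap with CD either, and the fall was larger on the log2 scale: 1.83-fold lower in PR (PR minus CD -0.87, SE 0.172, 95% interval -1.25 to -0.49, adjusted p = 0.00377) and 2.27-fold lower in FA (FA minus CD -1.18, SE 0.172, 95% interval -1.56 to -0.80, adjusted p = 0.000564). The calls of both probes held under all 22 alternative settings, those that left out 1 array included, although the background correction with normexp reduced the difference of the dimmer probe to -0.26 in both groups. Within groups, the deviations of both probes from their group means were weakly related (r = 0.29 over 12 arrays, a description).

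Gabra2, which encodes the alpha2 subunit found at the axon initial segment, was at 10.24, 10.13, 10.11 and 9.82 on the CD arrays, 10.38, 10.64, 10.49 and 10.56 on the PR arrays, and 10.27, 10.26, 10.11 and 10.16 on the FA arrays. The PR mice were all above the CD mice, whereas the FA mice overlapped the CD mice and lay below all PR mice. The PR level was 1.36-fold higher (PR minus CD 0.44, SE 0.089, 95% interval 0.25 to 0.64, adjusted p = 0.00426), and the FA level was not called (FA minus CD 0.12, SE 0.089, 95% interval -0.07 to 0.32, adjusted p = 0.308). FA minus PR was -0.32 (adjusted p = 0.14), so a difference between FA and PR was not called.

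Gabra5, the alpha5 subunit of mostly extrasynaptic receptors of the hippocampus, read 10.97, 10.72, 11.03 and 11.00 on the CD arrays, 11.14, 11.21, 11.18 and 11.20 on the PR arrays, and 11.15, 11.17, 11.19 and 11.16 on the FA arrays. The FA values spanned only 11.15 to 11.19, and every PR and FA value was above the highest CD value of 11.03. It rose 1.19-fold in PR (PR minus CD 0.25, SE 0.063, 95% interval 0.11 to 0.39, adjusted p = 0.0127) and 1.18-fold in FA (FA minus CD 0.24, SE 0.063, 95% interval 0.10 to 0.38, adjusted p = 0.0151). Gabra4, a subunit of extrasynaptic receptors in the thalamus and striatum, and Gabra6, which marks cerebellar granule cells, were not called. Gabra4 differed by -0.22 in PR and -0.22 in FA, and Gabra6 by 0.17 and 0.05. The interval for Gabra4 in PR reached from -0.67 to 0.23. Without PR replicate 1, Gabra6 was called higher in PR, by 0.23 (adjusted p = 0.0301).

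The beta subunits, which face the alpha subunits at the GABA binding site, showed no called difference. Gabrb1 differed by 0.02 in PR and -0.06 in FA, and Gabrb2 by 0.03 and 0.01. The 95% intervals of Gabrb1 ran from -0.16 to 0.20 in PR and from -0.24 to 0.12 in FA, and those of Gabrb2 were narrower.

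The gamma subunits anchor receptors at the synapse. Gabrg1, a subunit with a narrow distribution that includes the amygdala and the septum, has 2 probes, which moved in opposite directions in PR. The probe farther along the transcript, A_51_P396883, at transcript position 3816, read 11.29, 11.12, 11.18 and 11.10 on the CD arrays, 10.94, 10.87, 10.92 and 10.76 on the PR arrays, and 11.14, 11.08, 11.17 and 11.10 on the FA arrays. All PR mice were below all CD and FA mice, and the PR level was 1.23-fold lower than in CD (PR minus CD -0.30, SE 0.056, 95% interval -0.42 to -0.17, adjusted p = 0.00286). FA differed from CD by -0.05 (adjusted p = 0.546) and from PR by 0.25 (adjusted p = 0.0734). That FA and PR difference was called with dim probes left out (adjusted p = 0.0465), with trend and robust estimation (0.0471), and after normexp (0.0433). The probe A_66_P118170 shown above, at position 1078, read 6.20, 5.90, 6.50 and 6.40 on the CD arrays, 6.90, 6.84, 6.48 and 6.45 on the PR arrays, and 6.58, 6.53, 6.61 and 6.44 on the FA arrays. Its PR and CD values overlapped, and its PR level was 1.33-fold higher (PR minus CD 0.41, SE 0.141, 95% interval 0.10 to 0.73, adjusted p = 0.0483). FA differed from CD by 0.29 (adjusted p = 0.145). The PR call was lost in 8 of the 12 fits that left out 1 array (adjusted p 0.0608 to 0.12, without CD replicate 1 or 2, PR replicate 1 or 2, or any FA replicate), and after normexp (0.21, adjusted p = 0.0626). It was lost too in the fit of 2 groups, under the Tukey test, and with the replicate block (adjusted p up to 0.153). Gabrg3 was not called at either probe. Its probe A_55_P2053251 differed by -0.09 in PR and -0.16 in FA. Its probe A_55_P2112795 differed by -0.39 in PR and 0.09 in FA, with measured means of 4.83 in CD, 4.43 in PR, and 4.92 in FA. It was well above background on no CD array and on all PR and FA arrays. The lowest signal of any probe well above background was 4.76 to 5.28 on CD, 3.22 to 3.83 on PR, and 3.70 to 4.01 on FA arrays. No rise in PR or FA can therefore be read from this pattern.

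Of the less common subunits, Gabrd was higher in both groups. The delta subunit takes the place of gamma in extrasynaptic receptors of cerebellar granule cells, the dentate gyrus, and the thalamus, which carry tonic inhibition. Gabrd read 13.68, 13.76, 13.96 and 14.04 on the CD arrays, 14.10, 14.21, 14.14 and 14.19 on the PR arrays, and 14.19, 14.23, 14.08 and 14.15 on the FA arrays. All PR and FA values lay above all CD values, and the levels were 1.23-fold higher in PR (PR minus CD 0.30, SE 0.078, 95% interval 0.13 to 0.47, adjusted p = 0.0157) and 1.23-fold higher in FA (FA minus CD 0.30, SE 0.078, 95% interval 0.13 to 0.47, adjusted p = 0.0135). Scaled to the 75th percentile, the difference was 0.20 in PR (adjusted p = 0.0702) and 0.22 in FA (0.0542), past the threshold in neither. Gabre, Gabrp, and Gabrq, the epsilon, pi, and theta subunits, were not well above background on all arrays of any group. Gabrq, known from the hypothalamus and monoaminergic nuclei, was above background on 0 of 12 arrays and read 2.61, 2.60, 2.69 and 2.65 on the CD arrays, 3.06, 3.32, 3.08 and 3.27 on the PR arrays, and 3.14, 2.87, 3.75 and 3.76 on the FA arrays. It was called higher in both groups (adjusted p = 0.0421 in PR and 0.0092 in FA). The PR call was lost in 8 of the 12 fits that left out 1 array, those without any CD or any PR replicate (adjusted p 0.0583 to 0.0954). It was lost too under the Tukey test and with the replicate block. Scaled to the 75th percentile, the calls were lost in both groups (adjusted p = 0.366 in FA). With both groups below background no fold is given, and after normexp the calls were lost and the sign turned (-0.09 and -0.04).

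Of the rho subunits, which form GABA channels in the retina, Gabrr3 was called higher in both groups at 1 of its 2 probes, with CD at background. A_55_P2112819 read 2.56, 2.63, 2.58 and 3.01 on the CD arrays, 4.77, 4.80, 4.45 and 4.78 on the PR arrays, and 4.88, 5.20, 4.30 and 4.53 on the FA arrays. No CD array and every PR and FA array had it above background. The measured means were 2.69 in CD, 4.70 in PR, and 4.73 in FA (adjusted p = 7.36e-05 in PR and 7.13e-05 in FA). This probe was the only 1 of the 43 past the limits of the study, a 2-fold change together with an adjusted p below 0.0001, which 0.0913% of all probes passed in PR and 0.198% in FA. On the CD arrays the lowest signal of any probe well above background was between 4.76 and 5.28, higher than the PR mean of this probe, so no fold can be bounded. After normexp the difference was 0.27 in PR and 0.31 in FA, still called. The pattern of no CD array and all PR and FA arrays was seen for 1071 probes, 276 of them called higher in PR (25.8%) and 422 in FA (39.4%). Over these 1071 probes the median log2 difference was 0.33 in PR and 0.46 in FA, with 95% of them below 1.35 and 1.38. The other Gabrr3 probe, A_55_P2112817, shown above, was above background on 0 of 12 arrays and read 2.45, 2.45, 2.44 and 2.45 on the CD arrays, 2.32, 2.32, 2.30 and 2.26 on the PR arrays, and 2.34, 2.33, 2.32 and 2.65 on the FA arrays. It differed from CD by -0.15 in PR and -0.04 in FA, opposite in sign to the first probe and not called (adjusted p = 0.131 and 0.721). All its PR values lay below all CD values. Scaled to the 75th percentile, it was called lower in PR (-1.10, adjusted p = 0.00013) and in FA (-0.87, adjusted p = 0.000657). PR was called lower too in the fit of 2 groups (adjusted p = 0.0232), and both groups were without FA replicate 4 (0.00975 and 0.0357). Among 8 retina markers, 6 were above background on no CD array, 3 on no PR array, and 4 on no FA array, with Crx and Opn1sw on 0 of 12 arrays, and the summed linear intensity of the list was 156.4 to 161.9 on CD, 166.0 to 180.6 on PR, and 189.8 to 245.4 on FA arrays. The part of these signals in the result was not tested. Gabrr1 and Gabrr2 were not called, with differences between -0.05 and -0.02 for Gabrr1 and of -0.03 and -0.04 for Gabrr2.

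**Figure D2:**
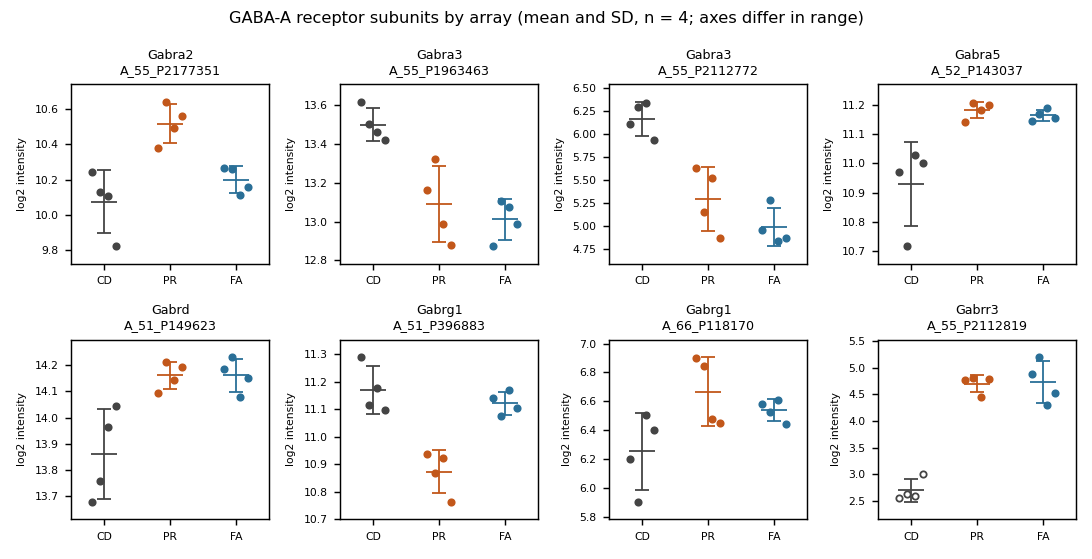
Log2 intensity (vertical axes, which differ in range) of 8 probes of GABA-A receptor subunits on each array of the CD, PR, and FA groups. Points are single mice in replicate order, bars are the mean ± SD (n = 4), and open points mark groups in which the probe was not well above background on all 4 arrays. Both Gabra3 probes are lower in PR and FA than in CD, the 2 Gabrg1 probes move apart in PR, and the Gabrr3 probe is above background on all PR and FA arrays and on no CD array.

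Of the GABA-B receptor, the subunit that couples to G proteins was lower in FA and the subunit that binds GABA was not called. Gabbr2, the coupling subunit, has 3 probes, all lower in FA and none called in PR, although 1 of them was called lower in PR under 3 other settings. A_52_P111145 read 8.18, 8.49, 8.23 and 8.22 on the CD arrays, 8.28, 8.06, 8.01 and 8.23 on the PR arrays, and 7.91, 7.98, 7.84 and 8.15 on the FA arrays. A_52_P612928 read 6.90, 7.02, 6.89 and 7.22 on the CD arrays, 6.95, 6.75, 6.83 and 6.85 on the PR arrays, and 6.41, 6.53, 6.47 and 6.84 on the FA arrays. A_55_P2081273 read 9.30, 9.53, 9.13 and 8.99 on the CD arrays, 8.89, 8.93, 8.92 and 8.82 on the PR arrays, and 8.62, 8.96, 8.59 and 8.96 on the FA arrays. At each probe every FA mouse was below every CD mouse, whereas PR and CD mice overlapped at A_52_P111145 and A_52_P612928 and not at A_55_P2081273. The FA levels were 1.24-fold lower (FA minus CD -0.31, SE 0.093, 95% interval -0.52 to -0.10, adjusted p = 0.0252), 1.36-fold lower (FA minus CD -0.45, SE 0.102, 95% interval -0.67 to -0.22, adjusted p = 0.00686), and 1.37-fold lower (FA minus CD -0.46, SE 0.124, 95% interval -0.73 to -0.18, adjusted p = 0.0161) in the order of the probes. The PR differences were -0.14, -0.16, and -0.35 (adjusted p = 0.286, 0.258, and 0.0571). Between FA and PR the differences were -0.17, -0.28, and -0.11, none called. The call of A_52_P111145 was lost without CD replicate 2, FA replicate 1, or FA replicate 3 (adjusted p 0.0628 to 0.0701) and after normexp (-0.17, adjusted p = 0.0663), which reduced the difference of A_52_P612928 to -0.23, still called. A_55_P2081273 was called lower in PR with dim probes left out (adjusted p = 0.0487), with trend and robust estimation (0.0471), and without CD replicate 4 (-0.43, adjusted p = 0.0243). Gabbr1, whose product binds GABA, differed at its 3 probes by -0.04, 0.21, and -0.12 in PR and by -0.05, 0.18, and -0.13 in FA, none called.

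Among the proteins that bind the receptors, Gabarap was higher in PR at 1 of 2 probes and Gabarapl2 was higher in FA. Gabarap, which binds gamma subunits and belongs to the family of autophagy proteins, read 12.76, 12.86, 12.79 and 12.79 on the CD arrays, 13.25, 12.98, 13.03 and 13.15 on the PR arrays, and 12.80, 13.03, 13.15 and 13.07 on the FA arrays at A_51_P295312. The PR values were above all CD values, and the PR level was 1.23-fold higher (PR minus CD 0.30, SE 0.08, 95% interval 0.13 to 0.48, adjusted p = 0.0165), with FA at 0.22 (adjusted p = 0.0599). The PR call was lost under the Tukey test (adjusted p = 0.0512), and FA was called higher with dim probes left out, with trend and robust estimation, and without PR replicate 1 or FA replicate 1 (adjusted p 0.0116 to 0.0499). Its other probe, A_55_P2010223, differed by 0.09 in PR and 0.03 in FA, neither called. Gabarapl2, of the same family, read 14.24, 14.23, 14.32 and 14.28 on the CD arrays, 14.39, 14.32, 14.33 and 14.42 on the PR arrays, and 14.42, 14.38, 14.45 and 14.35 on the FA arrays. In FA it was higher (FA minus CD 0.13, SE 0.041, 95% interval 0.04 to 0.22, adjusted p = 0.0288), the smallest called difference among the 43 probes, and in PR it differed by 0.10 (adjusted p = 0.093). The FA call was lost without CD replicate 1 or 2 or FA replicate 1 or 3 (adjusted p 0.0663 to 0.0775), and scaled to the 75th percentile the difference was 0.03. It was lost at that scaling, after normexp, in the fit of 2 groups, and with the replicate block (adjusted p 0.0503 to 0.572). With trend and robust estimation PR was called higher too (adjusted p = 0.0466). Gabarapl1 differed by 0.03 and 0.12, and Gphn, the gephyrin scaffold of inhibitory synapses, by 0.06 and 0.00.

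Of the enzymes of GABA, Gad1 was higher in both groups. Gad1 encodes the larger glutamate decarboxylase, which makes most of the GABA of the brain, and read 14.22, 14.23, 14.37 and 14.19 on the CD arrays, 14.54, 14.44, 14.44 and 14.53 on the PR arrays, and 14.47, 14.50, 14.53 and 14.50 on the FA arrays. All PR and FA values were above the highest CD value of 14.37, and the levels were 1.18-fold higher in PR (PR minus CD 0.23, SE 0.048, 95% interval 0.13 to 0.34, adjusted p = 0.00464) and 1.19-fold higher in FA (FA minus CD 0.25, SE 0.048, 95% interval 0.14 to 0.35, adjusted p = 0.00265). Scaled to the 75th percentile, the PR difference was 0.12 (adjusted p = 0.0868). Gad2, the other decarboxylase, was not called (-0.13 in PR and -0.10 in FA), nor was Abat, the GABA transaminase (-0.09 and -0.11). Of 18 probes for 14 markers of inhibitory neurons, 2 were higher and 3 lower in PR and 0 were higher and 5 lower in FA, and their summed linear intensity was 169700 to 179700 in CD, 162700 to 179800 in PR, and 159800 to 174000 in FA. Of 11 probes for markers of the striatum, whose projection neurons use GABA, 5 were higher and 0 lower in PR and 5 higher and 1 lower in FA, with sums of 117400 to 125300 in CD, 130800 to 138800 in PR, and 133100 to 144000 in FA. Over all probes 30.1% were called in PR and 34.7% in FA. The part of these inhibitory and striatal neurons in the Gad1 difference was not tested.

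Of the transporters, both membrane transporters measured were lower in FA and neither was called in PR. Slc6a11, which encodes GAT3, the GABA transporter of astrocytes, read 12.17, 12.16, 12.12 and 12.20 on the CD arrays, 12.04, 12.01, 11.26 and 11.12 on the PR arrays, and 11.29, 11.31, 12.003 and 11.34 on the FA arrays. The CD mice lay within 12.12 and 12.20, whereas PR replicates 1 and 2 and FA replicate 3 were near 12 and the remaining 5 PR and FA mice were between 11.12 and 11.34. The FA level was 1.60-fold lower (FA minus CD -0.68, SE 0.228, 95% interval -1.19 to -0.17, adjusted p = 0.0407), and PR was not called (PR minus CD -0.55, SE 0.228, 95% interval -1.06 to -0.05, adjusted p = 0.0922). The FA call was lost in 7 of the 12 fits that left out 1 array, without any CD replicate or without FA replicate 1, 2, or 4 (adjusted p 0.0698 to 0.0983). It was lost too under the Tukey test and with the replicate block (adjusted p 0.0752 to 0.138). Of 14 probes for 8 astrocyte markers, 2 were higher and 4 lower in FA (42.9%, against 34.7% of all probes). Their summed linear intensities were 268000 to 289400 in CD, 259200 to 279200 in PR, and 259800 to 264700 in FA. Slc6a13, which encodes GAT2, a transporter of the meninges, read 11.50, 11.55, 11.65 and 11.93 on the CD arrays, 11.49, 11.41, 11.39 and 11.50 on the PR arrays, and 11.39, 11.30, 11.50 and 11.21 on the FA arrays. FA replicate 3 and CD replicate 1 had the same value to 2 decimals, so FA and CD were not separate, and the FA level was 1.24-fold lower (FA minus CD -0.31, SE 0.094, 95% interval -0.52 to -0.10, adjusted p = 0.0268). Its call was lost without CD replicate 3 or FA replicate 2 or 4 (adjusted p 0.053 to 0.0725). It was lost too in the fit of 2 groups, under the Tukey test, and with the replicate block (adjusted p 0.0537 to 0.0842). Slc32a1, the vesicular transporter of inhibitory neurons, differed by -0.10 and -0.11 in PR and by -0.09 and -0.06 in FA at its 2 probes, none called.

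Of the glycine receptor, the beta subunit was higher in both groups, alpha1 was lower in FA, and alpha3 was lower in PR near background. Glrb, the beta subunit, which ties the receptor to gephyrin, read 12.79, 12.63, 12.92 and 12.78 on the CD arrays, 13.19, 13.17, 13.17 and 13.14 on the PR arrays, and 13.14, 13.03, 13.12 and 13.14 on the FA arrays. Every PR and FA mouse was above every CD mouse, and the levels were 1.31-fold higher in PR (PR minus CD 0.39, SE 0.057, 95% interval 0.26 to 0.51, adjusted p = 0.000717) and 1.26-fold higher in FA (FA minus CD 0.33, SE 0.057, 95% interval 0.20 to 0.46, adjusted p = 0.00151). Both calls held under all 22 alternative settings, those that left out 1 array included.

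Glra1, the alpha1 subunit of adult brainstem and spinal cord receptors, was lower in FA at both probes shown above. The probe across an exon junction, A_51_P445532, read 6.25, 6.44, 6.34 and 6.26 on the CD arrays, 5.99, 6.20, 5.92 and 5.88 on the PR arrays, and 5.88, 5.51, 6.01 and 6.14 on the FA arrays. The probe at the stop codon, A_55_P2005365, read 8.29, 7.93, 8.18 and 8.16 on the CD arrays, 8.23, 8.29, 7.69 and 7.34 on the PR arrays, and 7.26, 6.83, 7.88 and 7.22 on the FA arrays. FA replicate 2 was the lowest array at both, and all FA mice were below all CD mice at both. The FA levels were 1.35-fold lower (FA minus CD -0.44, SE 0.125, 95% interval -0.71 to -0.16, adjusted p = 0.0206) and 1.79-fold lower (FA minus CD -0.84, SE 0.246, 95% interval -1.39 to -0.30, adjusted p = 0.0227). PR differed by -0.33 and -0.25 (adjusted p = 0.0716 and 0.469). The call of A_51_P445532 was lost without CD replicate 2 (adjusted p = 0.0547), and that of A_55_P2005365 without CD replicate 1 or FA replicate 1, 2, or 4 (0.0503 to 0.0588). The call of A_51_P445532 was also lost after normexp (-0.10, adjusted p = 0.13) and with the replicate block (adjusted p = 0.0562), and the difference of A_55_P2005365 was -0.54 after normexp, still called. PR was called lower at A_51_P445532 without PR replicate 2 (-0.40, adjusted p = 0.0472), without FA replicate 2 (-0.33, adjusted p = 0.0168), and when only the 2 groups were fitted (-0.33, adjusted p = 0.0243). Of 12 probes for brainstem and spinal cord markers, Hox genes among them, 0 were called in PR and 1 was lower in FA, Hoxc8, at background on all arrays. Their summed linear intensity was 2892 to 3140 in CD, 2459 to 3839 in PR, and 1755 to 2939 in FA. The mean log2 level over the 11 probes that were above background on all arrays was 7.632, 7.499, 7.595 and 7.573 on the CD arrays. It was 7.272, 7.807, 8.022 and 7.246 on the PR arrays, and 7.620, 6.856, 7.625 and 7.608 on the FA arrays. Over all probes 30.1% were called in PR and 34.7% in FA. The part of the brainstem and spinal cord markers in the Glra1 difference was not tested.

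Glra3, the alpha3 subunit of spinal cord and retina, read 4.46, 4.83, 4.99 and 4.56 on the CD arrays, 4.03, 3.84, 3.98 and 3.72 on the PR arrays, and 4.21, 4.32, 4.79 and 4.34 on the FA arrays. Its signal exceeded the background on 0 of 4 CD, 2 of 4 PR, and 3 of 4 FA arrays, although its mean was highest in CD. It was called lower in PR (adjusted p = 0.00236) with measured means of 4.71 in CD and 3.89 in PR, and no fold is given since the brighter group was not above background. After normexp the PR difference was -0.14, still called, and FA was called lower without FA replicate 3 (adjusted p = 0.0349). Glra2, a fetal subunit that persists in part of the adult brain, was not called (0.17 in PR and 0.25 in FA).

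**Figure D3:**
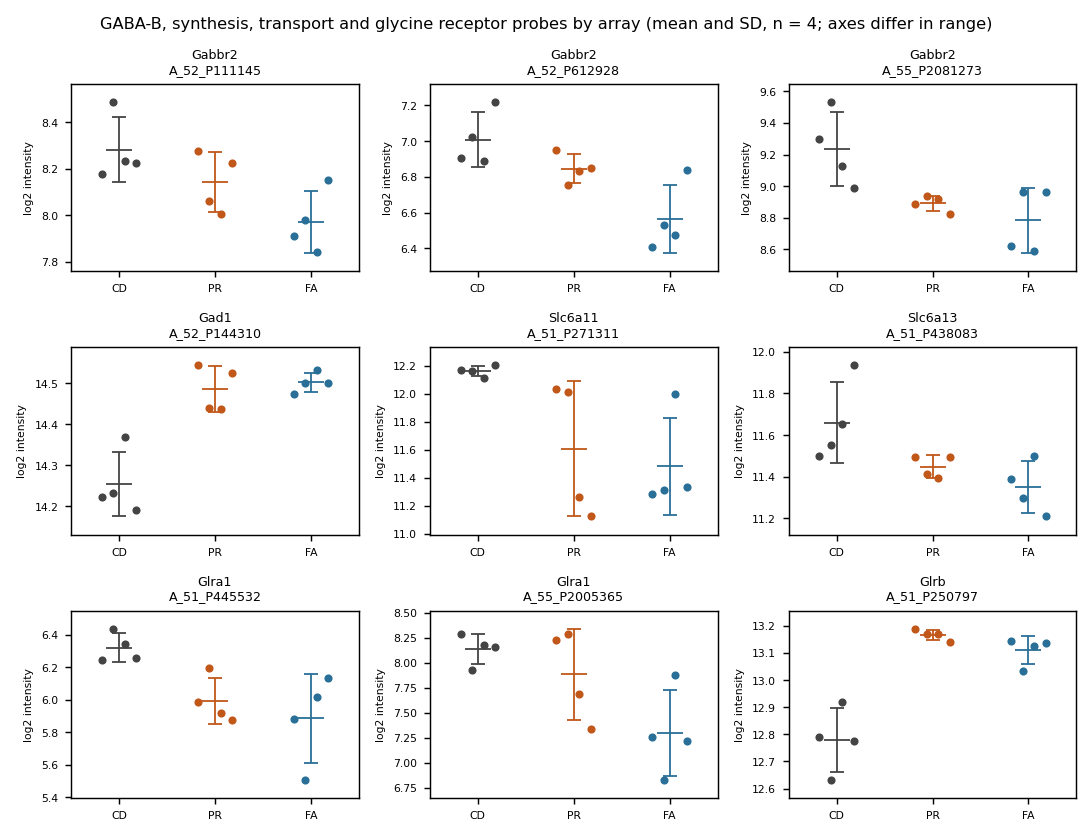
Log2 intensity (vertical axes, which differ in range) of 9 probes of Gabbr2, Gad1, Slc6a11, Slc6a13, Glra1, and Glrb on each array of the CD, PR, and FA groups. Points are single mice in replicate order and bars are the mean ± SD (n = 4). Gad1 and Glrb are higher in every PR and FA mouse than in any CD mouse, and the Slc6a11 values of PR and FA fall into a high set near 12 and a low set between 11.12 and 11.34.

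The 16 genes with no called probe had 20 probes, and 17 of these, for 14 genes, were above background on all 12 arrays. Their log2 differences ranged from -0.22 to 0.21 in PR and from -0.22 to 0.25 in FA, and their smallest adjusted p was 0.0973 in PR and 0.0797 in FA. The median residual SD within groups was 0.119 on the log2 scale over 36 member probes against 0.102 over 23753 probes, all above background on every array. It was lowest for Gabarapl2 (0.044), Gad1, and the Slc32a1 probe A_52_P138926 (both 0.058), and among these 36 probes highest for Glra1 A_55_P2005365 (0.372) and Slc6a11 (0.344). Several members are neighbours in the genome. On chromosome 5, Gabra2, Gabra4, Gabrb1, and Gabrg1 lie between 71143181 and 72528145 (mm9), and in PR Gabra2 was higher, Gabra4 and Gabrb1 were not called, and Gabrg1 was called in both directions. On chromosome 7, Gabra5 was higher in both groups and its neighbour Gabrg3 was not called.

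The other 32 genes of the pathway, such as the chloride transporters that set the direction of GABA currents and the proteins that move and anchor receptors, were measured by 47 probes for 31 genes. Of these probes 8 were higher and 6 lower in PR (29.8%, against 30.1% of all probes) and 6 were higher and 10 lower in FA (34.0% against 34.7%). The median log2 difference was 0.02 in PR and -0.02 in FA. Between FA and PR, 1 probe, Hap1 A_55_P2058726, was lower (-0.37, adjusted p = 0.0353).

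Kctd16, an auxiliary subunit of GABA-B receptors, had the largest fall in both comparisons among these genes. It read 8.45, 8.58, 8.35 and 8.46 on the CD arrays, 7.73, 7.87, 7.86 and 7.62 on the PR arrays, and 7.65, 8.12, 7.64 and 7.91 on the FA arrays. All PR and FA mice were below all CD mice, at 1.61-fold lower in PR (PR minus CD -0.69, SE 0.108, 95% interval -0.93 to -0.45, adjusted p = 0.00103) and 1.55-fold lower in FA (FA minus CD -0.63, SE 0.108, 95% interval -0.87 to -0.39, adjusted p = 0.00145). Trak2, an adaptor of kinesin that also binds GABA-A receptors, rose at A_52_P202029, by 0.48 in PR and 0.56 in FA (adjusted p = 0.000502 and 0.000187), and fell at A_66_P135176, with log2 differences of -0.36 and -0.49 (adjusted p = 0.00541 and 0.000902). Trak1, its relative, was lower at A_66_P104814 in PR (-0.47, adjusted p = 0.00795) and in FA (-0.48, adjusted p = 0.00604). Its probe A_51_P437021 was higher in PR (0.15, adjusted p = 0.0391) and not called in FA (0.10, adjusted p = 0.164). In both genes the probes disagreed. Gls2, a glutaminase that makes glutamate, was higher in PR (0.33, adjusted p = 0.00303) and in FA (0.39, adjusted p = 0.000997). Arfgef2, which acts in vesicle traffic of receptors, was higher in PR at 1 of 2 probes (0.40, adjusted p = 0.0126), with FA at 0.09 (adjusted p = 0.519). Lhfpl4, which places GABA-A receptors at synapses, was lower in PR at 1 of 2 probes (-0.41, adjusted p = 0.0217), with FA at -0.17 (adjusted p = 0.272). Rdx, or radixin, which holds alpha5 receptors outside the synapse, was higher in both groups at A_51_P430950 (0.26, adjusted p = 0.00465 in PR and 0.36, adjusted p = 0.000586 in FA), and its other probe differed by 0.11 in PR and -0.19 in FA, neither called (adjusted p = 0.271 and 0.0678). Hap1, which helps receptors return to the membrane, was lower in both groups at A_55_P2058726 (-0.20, adjusted p = 0.028 in PR and -0.57, adjusted p = 9.51e-05 in FA) and differed by 0.19 in PR and 0.24 in FA at its other probe (adjusted p = 0.126 and 0.0524). Slc12a5, the chloride exporter KCC2, was lower in FA at A_55_P2087544 (-0.50, adjusted p = 0.0293) and differed there by -0.28 in PR (adjusted p = 0.194), whereas its other probe differed by -0.00.

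**Figure D4:**
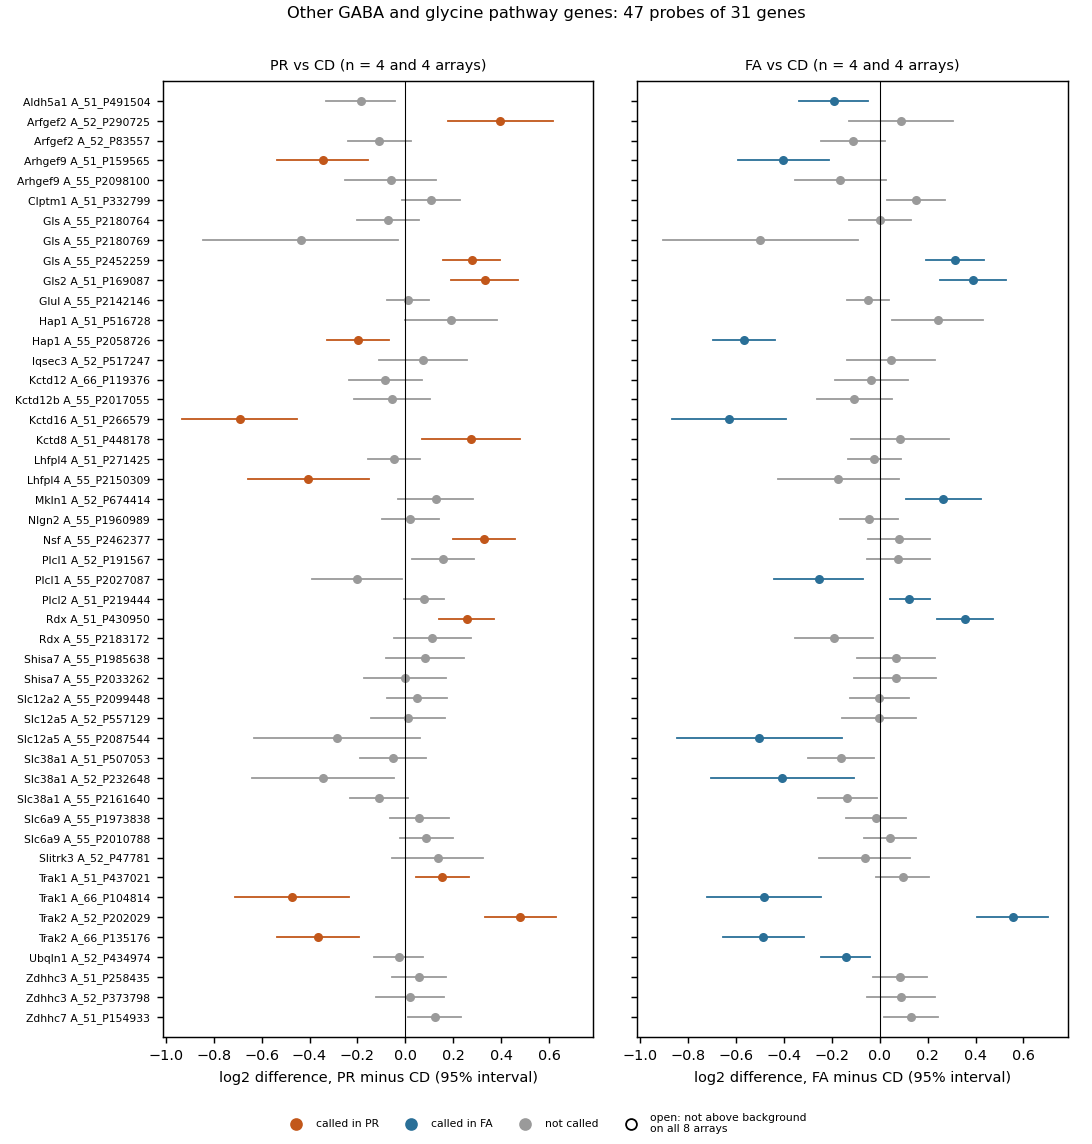
Log2 differences of 47 probes of 31 other GABA and glycine pathway genes, PR minus CD (left) and FA minus CD (right), with 95% intervals from limma (n = 4 arrays per group). Coloured points passed an adjusted p under 0.05. Kctd16 lies farthest to the left in both panels, at -0.69 and -0.63, and the Trak2 probes lie on opposite sides of 0.

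Markers of brain regions and cell types were counted as a check of the tissue. The counts stand beside 30.1% of all probes called in PR (13.6% higher and 16.5% lower). In FA 34.7% of all probes were called (16.4% higher and 18.3% lower). Every measured marker gene of forebrain neurons, cerebellar granule cells, astrocytes, and oligodendrocytes had a probe above background in every group. Of 11 probes for hypothalamic genes 0 were higher and 4 lower in PR and 5 lower in FA, with summed linear intensities of 36170 to 40870 in CD, 28250 to 31780 in PR, and 19640 to 38330 in FA. Of 9 pituitary probes 2, for Gh and Prl, were lower in both, and 1, for Ghrhr, was higher in FA. The retina list had 0 called in PR and 1 higher in FA of 8 probes, and the choroid plexus 1 higher in PR and 0 in FA of 11. Higher and lower probes numbered 4 and 3 in PR and 2 and 3 in FA of 11 for forebrain excitatory neurons, and 2 and 2 in PR and 2 and 1 in FA of 12 for thalamus, midbrain, and hindbrain. They numbered 3 and 2 in PR and 1 and 5 in FA of 17 for cerebellar granule cells, and 0 and 3 in PR and 0 and 4 in FA of 9 for Purkinje cells. For glia they were 3 and 2 in PR of 14 for astrocytes, 4 and 1 in PR and 2 and 1 in FA of 12 for oligodendrocytes, and 3 and 2 in both of 11 for microglia. Endothelial cells had 4 and 0 in PR and 4 and 1 in FA of 9, and blood had none called of 9. The part of these tissues in the differences of the inhibitory synapse genes was not tested.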

How the data were processed

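Gene expression in whole brains of 12 mice was measured on one-colour Agilent arrays with 60-base probes. The deposited spot intensities were made by the authors with Agilent Feature Extraction 11.0.1.1, which subtracts a spatial background and replaces small values by surrogates. The authors then normalized between arrays by qspline of the R package affy, and their deposited table holds linear intensity values, 1 per probe. Methylation arrays of the series were not analysed here.

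Here the same spline was applied to the processed intensities, flagged outlier spots were left out, spots of a probe were averaged, and log2 values were tested with limma 3.58.1 in R 4.3.3 (3 groups, no block, Benjamini-Hochberg adjustment over 39429 probes). As a check, the spline was applied to probe means with outlier spots kept, and this differed from the deposited table by 0.0017 at most on the log2 scale. The tested values, averaged after the spline and without outlier spots, can differ more. For Gabarapl1, FA minus CD was 0.125 in the tested values and 0.154 in the deposited ones, where it was called (adjusted p = 0.0452 in limma). The flag for signals well above background had to be set for at least 50% of the spots of a probe on an array. No spot was saturated, and no member value was missing. The number of arrays (4 per group) limits the precision. In simulated data for PR against CD with all 39429 probes, only 67, 67, and 66 probes were changed, by 0.25, 0.5, and 1 on the log2 scale. Of these, 23.9%, 61.2%, and 97% were recovered. The adjusted p depends on how many probes differ, and 30.1% of all probes were called in PR in the measured data. The recovered shares therefore do not give the power of the comparisons made here. All 43 accessions matched the RefSeq table, with no change of symbol. Probe coordinates are those of the array files (mm9).

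The 32 genes, the other pathway genes, and the lists of cell type and region markers were chosen with earlier results of these data known. Values in every sample are given for each gene with a called probe in a comparison with CD or a change of at least 2-fold. Of the other pathway genes, the 3 largest called changes in each direction in each comparison with CD, among probes above background on all 12 arrays, are named; their second probes and the smaller values named for uncalled members were added after their values were seen. Results were recomputed with the deposited values, with quantile normalization, after scaling to the 75th percentile, after normexp background correction (offset 50), with outlier spots kept, without dim probes, with robust and trended variances, in fits of 2 groups, by the Tukey test of the methods, with a replicate block, and without each array. Items withheld from this text, a marker gene and a probe sequence among them, are not reported here.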

Additional observations from a re-analysis of the deposited data

Results flagged for a closer look

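Within the 4 arrays of a group, a single value stood apart from the others (Dixon's test at the 95% level) in 5 of 112 groups of member values, or 4.46%, where chance gives about 1 in 20. Gabrr1 A_51_P177691 was high in CD replicate 4, at 7.875 on the log2 scale. Gabrr3 A_55_P2112819 was low in PR replicate 3, at 4.454. Slc6a11 A_51_P271311 was high in FA replicate 3, at 12.003, close to the CD values. Gphn A_55_P2025403 was high in PR replicate 4, at 12.461. Glrb A_51_P250797 was low in FA replicate 2, at 13.034, and still above every CD value.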

How the results depend on the processing

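Quantile normalization, the deposited values, and keeping outlier spots left all 13 calls in PR and all 16 in FA in place. After normexp correction the calls of Gabrq were lost and its difference changed sign, to -0.092 in PR (adjusted p = 0.123) and -0.043 in FA (adjusted p = 0.448). Scaled to the 75th percentile, the median difference of the 43 probes was -0.062 in PR and -0.077 in FA, beside -0.027 and -0.051 over all probes. At that scaling 8 probes were lower in PR and 4 higher in FA, with 37.0% and 39.7% of all probes called. Slc32a1 A_52_P138926, Abat, and Gabrr3 A_55_P2112817 were then called lower in both groups. Gabarapl1 was called lower in PR (-0.19, adjusted p = 0.027), against 0.03 in the main fit. Gabrp, at background, was called lower in FA (-1.07, adjusted p = 0.0117). The Tukey test called 10 probes in FA, 3 of them lower. Between FA and PR, 1 probe was higher after normexp, with dim probes left out, and with trend and robust estimation. Of all probes tested, 0.837%, 1.97%, and 1.12% were called in that comparison under these settings. Of the other pathway genes, 5 probes were lower in FA when only the 2 groups were fitted and under the Tukey test. Under these settings 32.2% and 25.7% of all probes were called in FA. Between FA and PR 2 were lower with trend and robust estimation, and 0 with only 2 groups, the Tukey test, or the replicate block. The cause was not tested.

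Leaving out 1 array at a time, the median difference ranged from -0.092 to -0.017 in PR, from -0.078 to -0.016 in FA, and from -0.053 to -0.019 between FA and PR. The member probes called numbered 7 to 8 higher and 4 to 5 lower in PR, 6 to 9 higher and 6 to 9 lower in FA, and 0 between FA and PR. Of the other pathway genes, 6 to 8 were higher and 4 to 8 lower in PR, 5 to 8 higher and 5 to 12 lower in FA, and 0 to 1 lower between FA and PR. Over the same 12 fits, 24.0% to 31.3% of all probes were called in PR and 29.3% to 35.5% in FA. Between FA and PR the share was 0.0862% to 0.746%. The 12 pairs of arrays with the same replicate number correlated from -0.064 to 0.208, and 5 of 12 arrays correlated best with their own number, so the number was not taken to pair the mice. With it as a replicate block, 11 of the 13 calls in PR and 12 of the 16 in FA remained, and 0 were made between FA and PR. Of all probes 28.1% were then called in PR, 32.6% in FA, and 0.0279% between FA and PR. Slide as a block was not run, because each slide holds 1 group. Gabrq and Glra3 have no value with dim probes left out in PR. Probes near background limit what can be said of Gabre, Gabrg3, Gabrp, Gabrq, Gabrr3, and Glra3.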
